A study of Mus musculus with 2 samples.

Results

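The mitochondrially encoded genes of the adrenal gland were described in total RNA-seq of mouse tissue. Members were all genes of the annotation whose symbol begins with mt-. The rule found 37 of the 55536 GENCODE genes in the gene table, made up of 13 protein genes, 2 ribosomal RNA (rRNA) genes and 22 transfer RNA (tRNA) genes. The study holds 1 group with 2 libraries, labelled biological replicates 1 and 2, of adrenal gland from female mice of the F1 hybrid strain B6CASTF1/J aged 14 days. No other genotype, treatment or age was sampled, so values can only be compared between genes and between these libraries. Each library was made from 300 ng of rRNA-reduced RNA with a directional kit and ERCC spike-ins, a set of synthetic RNAs. The labels give both libraries 1 donor identifier and a library description with a pool of 3 females, but the tissue of replicate 2 is described as from a single female. It was not settled that the replicates came from separate animals, and their spread may be partly technical.

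Each library was deposited with 3 quantifications. A gene table and a first transcript table give expected counts, in which reads that match several entries are divided among them, and TPM, a level per length relative to all entries. Every member has 1 transcript, and these tables gave the same TPM for all members, to within 0.01. The second transcript table is a separate quantification of the same reads and also gives counts and TPM. The gene table held 37586172 expected counts in replicate 1 and 33844950 in replicate 2, so for a gene at 0 the upper limit of 3 counts is 7.98e-06% of the first library and 8.86e-06% of the second. At these depths the counting error of a member is small, and the spread between libraries and between tables is the larger error.

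The libraries differed in tissue markers. The 5 cortex markers, enzymes and regulators of steroid synthesis, summed to 7135 TPM in replicate 1 and 3038 in replicate 2, and the 5 medulla markers summed to 1565 and 719 TPM. The 5 liver markers summed to 306 and 17754 TPM and the 5 skeletal muscle markers to 19.6 and 475 TPM. The 4 brown fat markers summed to 1197 and 1434 TPM. The 5 thymus and T cell markers summed to 31.4 and 0.84 TPM and the 4 red cell markers to 8483 and 2617 TPM. None of these genes was at 0 in either library, and the part of these tissues in the mitochondrial values was not tested.

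Mitochondrial DNA encodes core subunits of the respiratory chain and the RNAs needed to translate them. Its strands are transcribed as long precursors that are cut largely at the tRNA genes, which sit between the other genes like punctuation. In the adrenal cortex mitochondria also hold early and late steps of steroid synthesis, which use electrons from the mitochondrial matrix. Copies of mitochondrial DNA inserted into nuclear chromosomes are common in mammals, and short reads from the gene and from a recent copy can be identical.

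The layout of the genome sets what reads can tell apart. In the mm10 annotation 1 protein gene, mt-Nd6, and 8 tRNA genes lie on the minus strand of the mitochondrial genome. Of the 36 pairs of neighbouring genes only 1, mt-Tn and mt-Tc, has more than 10 bases between its members. The gene mt-Atp8 (bases 7766 to 7969) shares 43 bases with mt-Atp6 (7927 to 8607), mt-Nd4l (9877 to 10173) shares 7 bases with mt-Nd4 (10167 to 11544), mt-Nd5 shares 14 bases with mt-Nd6, on the other strand, and mt-Atp6 shares 1 base with mt-Co3. Several tRNA genes also overlap a neighbour by a few bases, as mt-Ti does mt-Nd1. The joints of the first 2 pairs, the pairs of protein genes that overlap on the same strand by more than 1 base, are shown. These overlaps are shorter than the windows used below, and no such window was shared between members. Capitals mark the bases that belong to both genes. Each run of capitals opens with the start codon of the downstream gene and ends with the stop codon of the upstream gene.
mt-Atp8 into mt-Atp6: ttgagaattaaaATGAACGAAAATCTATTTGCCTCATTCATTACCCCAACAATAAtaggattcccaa
mt-Nd4l into mt-Nd4: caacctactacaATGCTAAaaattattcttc

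In 3 of the 13 protein genes, mt-Co3, mt-Nd4 and mt-Cytb, the annotated length is not a multiple of 3. Their last bases are shown with the base past the last whole codon in capitals. A stop codon is known to be completed by the poly(A) tail in such mitochondrial transcripts.
mt-Co3 end: tattgatgaggatctT
mt-Nd4 end: acaggcctgacaataT
mt-Cytb end: ctaaaattatatccaT

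In all, 11 annotated pseudogenes matched 9 of the members at 95% identity or more over at least 100 bases, 10 of them with at least 10 counts in either library by either table. Of these 11 copies, 7 lie side by side on the minus strand of chr1:24611535-24616197 (mm10), 3 on chromosome 2 and 1 on chromosome 13. The chromosome 1 block holds copies of mt-Nd4, mt-Nd4l, mt-Nd3, mt-Co3, mt-Atp6, mt-Co2 and the end of mt-Co1. Within the annotated stretch the copies Gm28661 (of mt-Co2), Gm10925 (of mt-Atp6), Gm28437 (of mt-Co3), Gm10222 (of mt-Nd4l) and Gm28439 (of mt-Nd4) had no base that differed from the gene. Gm28438 differed from mt-Nd3 by 1 substitution, T3C, and Gm29216 from mt-Co1 by 6, from T1056A to A1066T. In each token the gene's base comes first and positions are counted from 1 at the gene's 5′ end. The last bases of 3 pairs are shown with the gene's bases beyond the end of the copy in capitals. For mt-Co2 and mt-Atp6 these are the stop codon, and for mt-Co3 a single T.
mt-Co2 3' end: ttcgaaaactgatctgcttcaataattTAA
Gm28661 3' end: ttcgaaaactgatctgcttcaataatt
mt-Atp6 3' end: gtaagcctatatctacatgataatacaTAA
Gm10925 3' end: gtaagcctatatctacatgataataca
mt-Co3 3' end: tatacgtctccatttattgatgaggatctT
Gm28437 3' end: tatacgtctccatttattgatgaggatct

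The pairs with substitutions are shown from the first base of the stretch they share, with the differing bases in capitals. Beyond these bases the 2 sequences of each pair are the same to the end of the copy.
mt-Nd3 start of the shared stretch: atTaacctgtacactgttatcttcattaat
Gm28438 start of the shared stretch: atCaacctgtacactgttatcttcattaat
mt-Co1 start of the shared stretch: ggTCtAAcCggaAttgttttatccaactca
Gm29216 start of the shared stretch: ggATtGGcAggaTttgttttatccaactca

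The share of each gene that is unique was counted in windows of 100 bases, the length that the first tables' effective lengths imply. Of the 585 windows of mt-Co2 only 3 occurred in no other annotated transcript. The same held for 3 of 582 windows of mt-Atp6, 1 of 685 of mt-Co3, 6 of 249 of mt-Nd3 and 3 of 198 of mt-Nd4l. In mt-Nd4, 502 of 1279 windows were unique, in mt-Co1 1000 of 1446 and in mt-Nd2 909 of 939. No window was shared with another annotated gene in mt-Rnr1, mt-Rnr2, mt-Nd1, mt-Atp8, mt-Nd5, mt-Nd6 and mt-Cytb. Unannotated stretches of the nuclear genome were not searched. Such a stretch lies in the chromosome 1 block between Gm10925, ending at 24614651, and Gm28661, starting at 24614885. By gene order mt-Atp8 falls there, so whether it shares windows with that stretch is not known.

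The 2 rRNA genes made up most of the mitochondrial counts. All members together took 36.93% of the expected counts in replicate 1 (95% Wilson interval 36.92 to 36.95) and 38.62% in replicate 2 (38.60 to 38.64). The rRNA genes took 27.12% (27.11 to 27.14) and 31.05% (31.04 to 31.07). The 13 protein genes took 9.81% (9.80 to 9.82) and 7.57% (7.56 to 7.57), and 13.5% and 11.0% of the counts outside mitochondrial rRNA. The copies took a further 1.25% and 1.02%, nearly all on chromosome 1. The members' total was thus higher in replicate 2 while their protein genes' part was lower. Intervals cover counting error only.

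The rRNA genes were the 2 most abundant single entries of the annotation in both libraries. Rn7s1 and Rn7s2, each listed at 63159 and 85762 TPM, may share reads and were not added together for this ranking. The gene mt-Rnr1, for the small-subunit rRNA of the mitochondrial ribosome (bases 70 to 1024), stood at 137238 TPM in replicate 1 and 148686 in replicate 2. The gene mt-Rnr2, for the large-subunit rRNA (1094 to 2675), stood at 119498 and 129126 TPM. Their ratio was nearly the same in both libraries, with mt-Rnr2 at 0.871 and 0.868 of mt-Rnr1 in TPM, a log2 ratio of -0.20 ± 0.0027 (SD, n = 2). The order depended on the table. In the second transcript table mt-Rnr2 stood at 1.14 and 0.981 of mt-Rnr1. The summed counts of the pair in that table were 0.983 and 0.976 of those in the gene table, but mt-Rnr1 received 31.0% and 33.9% of them, against 39.9% in both libraries of the gene table. How much of each rRNA the rRNA reduction had removed was not tested.

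Against the protein genes the rRNA genes differed between libraries. Summed rRNA counts were 2.77 times the summed protein gene counts in replicate 1 and 4.10 times in replicate 2. With the counts of the copies added to their genes the ratios were 2.45 and 3.62. In the second transcript table, copies added, they were 2.72 and 4.18. This ratio is free of the scaling between libraries, and replicate 2 was the higher library in each of these settings.

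Complex V genes were among the highest of the protein genes. The gene mt-Atp6, for a membrane subunit of ATP synthase in the proton path, stood at 21737 TPM in replicate 1 and 16520 in replicate 2. The gene mt-Atp8, for a small membrane subunit of the same enzyme, stood at 14774 and 10369 TPM. The ratio of mt-Atp8 to mt-Atp6 was 0.680 and 0.628, a log2 ratio of -0.61 ± 0.081 (SD, n = 2). Per base of full length it was -1.35, because the effective length of mt-Atp8 is 105 of its 204 bases. Both libraries had mt-Atp6 as the higher of the pair.

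Complex IV, cytochrome c oxidase, has 3 members. The gene mt-Co1 (bases 5328 to 6872), for the catalytic subunit, stood at 19948 and 13852 TPM, and mt-Co3 (8607 to 9390), for a core subunit beside it, at 14416 and 11693 TPM. The gene mt-Co2 (7013 to 7696), for the subunit that takes electrons from cytochrome c, was listed at only 127 and 135 TPM, the lowest of the protein genes. Its chromosome 1 copy Gm28661 was listed at 18448 and 15289 TPM, which placed that pseudogene among the 10 most abundant entries outside the mitochondrial genome. Added together, mt-Co2 and its copies came to 18488 and 15353 TPM, a level next to that of mt-Co1.

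Complex III has 1 member, mt-Cytb, for its cytochrome b subunit, at 14101 and 10371 TPM. Both values lay close to those of mt-Co3 and mt-Atp8. No annotated copy of mt-Cytb was found, so its counts rest on windows that are unique among annotated transcripts.

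Complex I, NADH dehydrogenase, has 7 members, all for membrane subunits of its proton-pumping arm, and they were lower. The gene mt-Nd4 stood at 9467 and 6686 TPM and mt-Nd1 at 8597 and 6052 TPM. The gene mt-Nd4l stood at 8270 and 5518 TPM, 0.873 and 0.825 of mt-Nd4, with which it overlaps. The gene mt-Nd2 stood at 7262 and 5595 TPM, mt-Nd5 at 5543 and 3901 TPM and mt-Nd3 at 3485 and 3060 TPM. In each of them replicate 1 was the higher library in TPM, as it was for 12 of the 13 protein genes, mt-Co2 being the exception. With its copies added, mt-Co2 was also higher in replicate 1, at 18488 and 15353 TPM.

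The gene mt-Nd6, the only protein gene transcribed from the other strand, stood at 1112 and 989 TPM. The median of the other 12 protein genes was 8.12 times higher in replicate 1 and 6.44 times higher in replicate 2, a log2 ratio of -2.85 ± 0.24 (SD, n = 2). With copies added to their genes the difference was wider, at 10.6 and 8.62 times, and mt-Nd6 was then the lowest protein gene in both libraries. Against mt-Nd5, its neighbour in complex I, whose only copy took at most 3 counts in the gene table, mt-Nd6 stood at 0.201 and 0.253. Whether counting used strand is not given in the sources used here. Without strand, reads of mt-Nd6 and of the opposite strand of its precursor cannot be told apart.

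**Figure D1:**
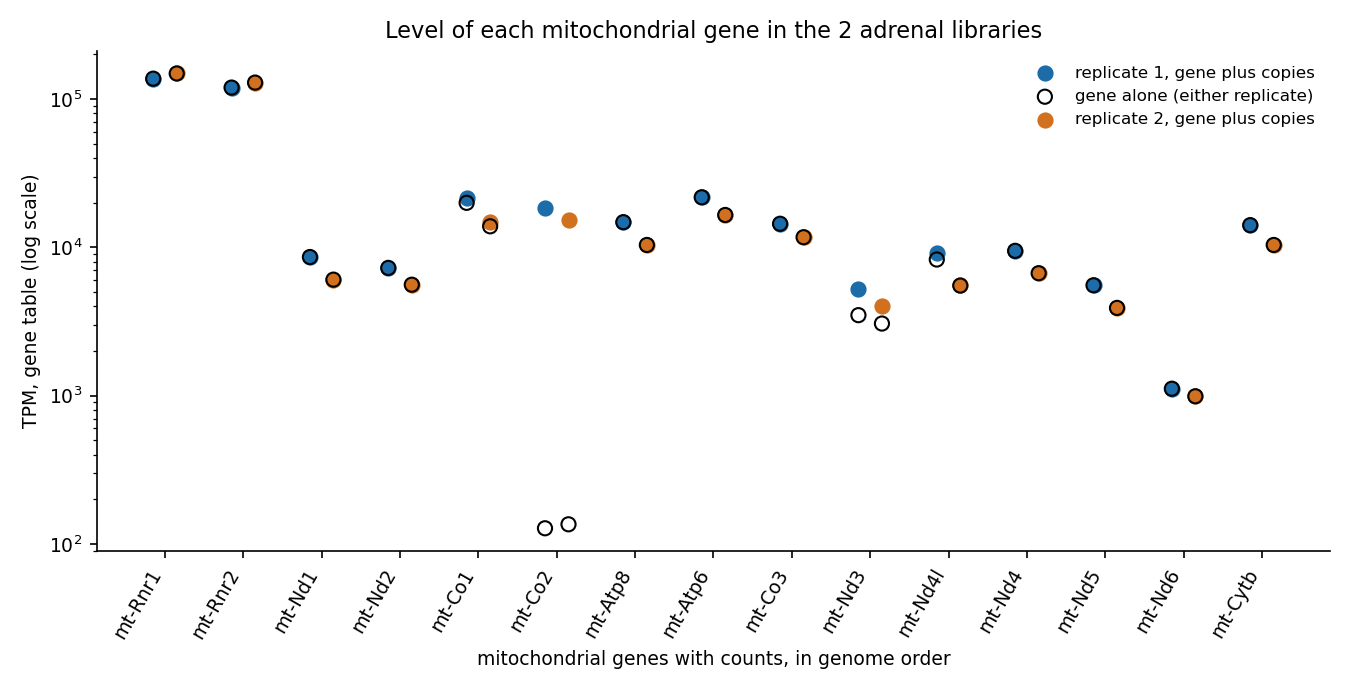
TPM from the gene table (log scale) for the 15 mitochondrial genes with counts, in genome order, in replicate 1 and replicate 2; filled points add the counts of annotated copies and open points are the gene alone. The rRNA genes lie highest, between 119498 and 148686 TPM, mt-Co2 rises from 127 and 135 TPM alone to 18488 and 15353 TPM with its copies, and mt-Nd6 is lowest once copies are added.

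To order the protein genes, each gene's share of the summed TPM of the 13 genes in the gene table, copies added, was compared over the 2 libraries. The highest shares were those of mt-Atp6 at 14.6 ± 0.29%, mt-Co1 at 13.7 ± 0.73% and mt-Co2 at 12.97 ± 1.07% (SD, n = 2). Next came mt-Co3 at 9.99 ± 0.66%, mt-Atp8 at 9.51 ± 0.35% and mt-Cytb at 9.29 ± 0.033%. The complex I genes followed with mt-Nd4 at 6.11 ± 0.20%, mt-Nd1 at 5.54 ± 0.19%, mt-Nd4l at 5.51 ± 0.71% and mt-Nd2 at 4.90 ± 0.14%. The lowest were mt-Nd5 at 3.57 ± 0.12%, mt-Nd3 at 3.52 ± 0.070% and mt-Nd6 at 0.809 ± 0.11%. Among neighbours in this order, the values of the 2 libraries overlapped between mt-Co1 and mt-Co2, mt-Co3 and mt-Atp8, mt-Atp8 and mt-Cytb, mt-Nd1 and mt-Nd4l, and mt-Nd5 and mt-Nd3. Those pairs could not be ordered beyond their spread. The other neighbours did not overlap, with n = 2. Between mt-Nd4l and mt-Nd2 the gap was minute, at 5.0026% and 5.00006% in replicate 2. Though not neighbours in this order, mt-Nd4 and mt-Nd4l also overlapped, at 5.98% in replicate 2 and 6.01% in replicate 1. The second transcript table, copies added, gave another order. There mt-Co1 came first at 17.2% and 16.6%, then mt-Co2 at 14.7% and 17.5% and mt-Atp6 at 14.2% and 15.8%, whose values overlapped from one to the next. In that table mt-Nd4l had 5.38% and 0.087%, and mt-Atp8 was listed at 0.

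The split of counts between a gene and its copies differed with the gene and with the method. In the gene table mt-Co2 kept 0.689% and 0.882% of the counts it shared with its copies. The genes mt-Co3 and mt-Atp6 kept over 99.9% of theirs in both libraries, although they have no more unique windows than mt-Co2. Thus 371441 and 293385 expected counts went to Gm28661, while Gm28437, the copy of mt-Co3, received 4.29 and 4.33. The copy of mt-Atp6, Gm10925, received 0 and 163 counts.

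For mt-Nd3 the gene kept 66.3% and 76.6% of the counts, and Gm28438 received 15241 and 7678. For mt-Nd4l the gene kept 90.9% and 98.6%, and Gm10222 received 5656 and 522. For mt-Co1 it kept 92.7% and 93.8%, and Gm29216 received 78894 and 43494. The copy of mt-Nd4, Gm28439, received 0 counts in both. The copies on the other chromosomes received few counts, at most 210.0 for Gm13340, a full-length copy of mt-Co1, with 143 for Gm13341 (of mt-Co2), 3.42 for Gm13339 (of mt-Nd2) and 3 for Gm4076 (of mt-Nd5), all in replicate 1.

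The authors' posterior mean counts and their posterior SD, a measure of how well the reads fix the split, were given in the same gene table. For mt-Co2 the expected count was 2577 in replicate 1 while the posterior mean was 57050 with a posterior SD of 8182. In replicate 2 these were 2612, 36185 and 5569. For mt-Co3 the posterior mean was 0.726 and 0.684 of the expected count, with 247926 (posterior SD 8244) against 341625 and 180649 (7120) against 264079. For mt-Atp6 it was 0.955 and 0.737 of the expected count. In mt-Rnr1, mt-Rnr2, mt-Nd1, mt-Nd2, mt-Atp8, mt-Nd5, mt-Nd6 and mt-Cytb, 8 of the 15 members with counts, the posterior SD was under 1 count in both libraries. These 8 include all members without a window shared in the annotation.

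**Figure D2:**
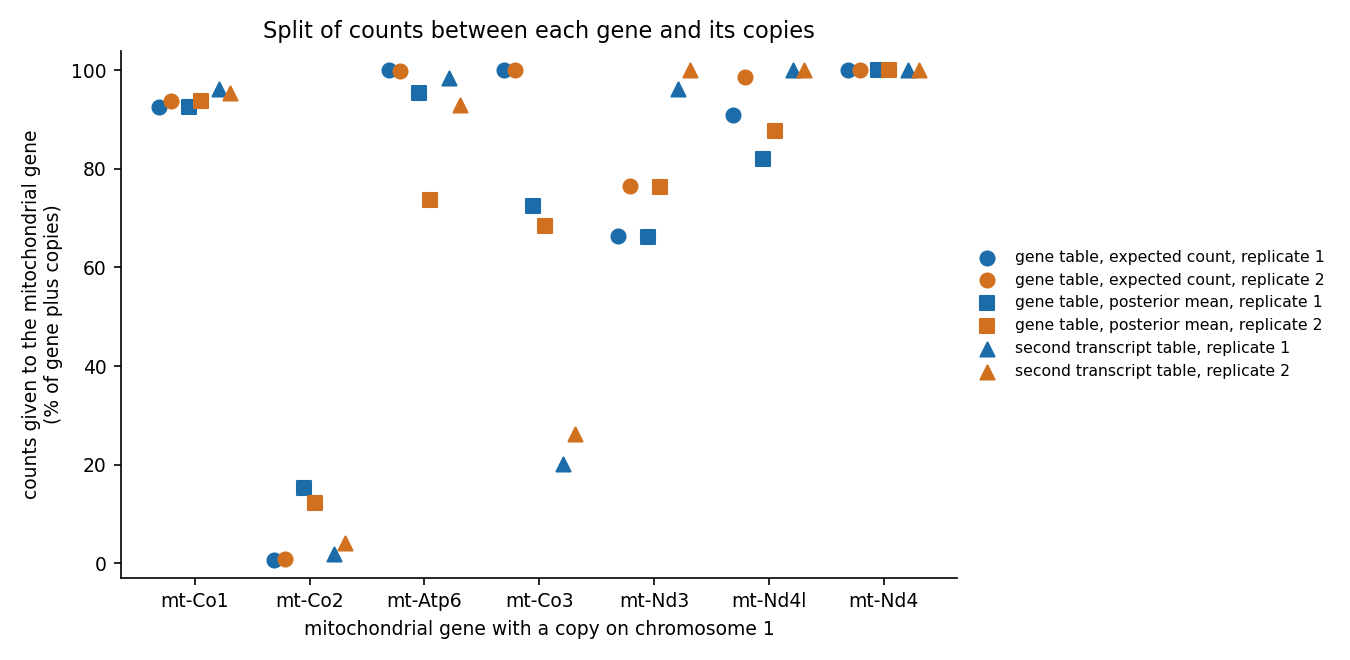
Percent of the counts of each gene plus its copies that was given to the mitochondrial gene, for the 7 genes with a copy on chromosome 1, by 3 estimates (shape) in replicates 1 and 2 (colour). The estimates agree near 100 for mt-Nd4, lie between 0.689 and 15.2 for mt-Co2, and run from 20.2 to over 99.9 for mt-Co3.

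All 22 tRNA genes were listed at 0 counts in both libraries and in every table. They are 59 to 75 bases long, shorter than the 100-base window, and their effective length in the gene table was 0. The same held for all 2398 genes of the annotation with an effective length of 0, which had no counts either. In the second transcript table, whose effective lengths for them were above 0, no gene up to 75 bases long had more than 3 counts in both libraries, of 1026 such genes. At an effective length of 0 the gene table could give no count, so its zeros say nothing of level. In the second table the low counts were shared by genes this short as a set, whose types were not compared. The tRNA levels were thus not measured. The shortest and the longest are shown whole.
mt-Ts2: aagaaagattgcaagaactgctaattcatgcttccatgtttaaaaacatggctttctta
mt-Tl1: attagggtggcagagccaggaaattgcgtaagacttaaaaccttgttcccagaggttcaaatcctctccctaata

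The libraries were then compared gene by gene, as log2 of replicate 2 over replicate 1 after TMM scaling, which sets the bulk of genes equal. An exact conditional binomial test with Benjamini-Hochberg adjustment over the 16170 genes that averaged 20 counts or more asked whether counts differed beyond counting noise. It compares these libraries, not conditions. It called 53.3% of all genes, 28.6% as higher in replicate 2 and 24.7% as lower, and all 15 members with counts, 8 as higher and 7 as lower. The 22 tRNA genes had no counts and were not tested. With counts this high the test calls very small differences, so sizes are of more use than calls. The median difference over the 13 protein genes was -0.02, beside -0.003 over all tested genes, whose interquartile range ran from -0.24 to 0.30.

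Both rRNA genes were higher in replicate 2. In the gene table the log2 difference was 0.54 for mt-Rnr1 and 0.53 for mt-Rnr2, or 1.45-fold for each. In the second transcript table it was 0.75 for mt-Rnr1 and 0.56 for mt-Rnr2. Scaling the gene table to ERCC spike-ins gave 0.26 for both, and scaling it to total counts gave 0.20 and 0.19.

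The protein genes lay close to 0, and most inside the interquartile range of all genes. Among genes with no window shared in the annotation mt-Nd1 differed by -0.09 (95% interval -0.094 to -0.076), mt-Nd5 by -0.09, mt-Atp8 by -0.09 and mt-Cytb by -0.02. The genes mt-Nd4 at -0.08 and mt-Co1 at -0.11 were alike. The light-strand gene mt-Nd6 stood apart from these at 0.25 (0.22 to 0.28), although spike-in and total-count scaling turned it to -0.02 and -0.09. In the second transcript table mt-Nd6 differed by less, at 0.13. Its ratio to mt-Nd5, 0.201 in replicate 1 and 0.253 in replicate 2, does not depend on scaling.

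In genes with copies the difference depended on how the shared counts were handled. For mt-Co2 it was 0.51 alone and 0.15 with copies, for mt-Nd3 0.23 alone and 0.03 with copies, and for mt-Nd4l -0.16 alone and -0.28 with copies. For mt-Co3 it was 0.12 and for mt-Atp6 0.03 either way, and for mt-Nd2 0.04, all in the gene table's expected counts. From posterior means it was 0.034 for mt-Co3, -0.35 for mt-Atp6 and -0.17 for mt-Co2. In the second transcript table it was 1.37 alone and 0.18 with copies for mt-Co2, and 0.50 alone and 0.13 with copies for mt-Co3. There mt-Nd3 stood at -0.11 alone and -0.16 with copies, and mt-Nd4l at -5.76 either way. Scaling to ERCC totals moved the median of all genes to -0.28 and scaling to total counts moved it to -0.34. With those scalings mt-Nd2, mt-Atp6, mt-Co3, mt-Nd3 and mt-Nd6 changed sign, 3 members were called higher in each, beside 15.7% and 14.1% of all genes, and 11 and 12 were called lower, beside 52.8% and 58.3%. In bulk tissue fewer cells of a type and less RNA per cell cannot be told apart.

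**Figure D3:**
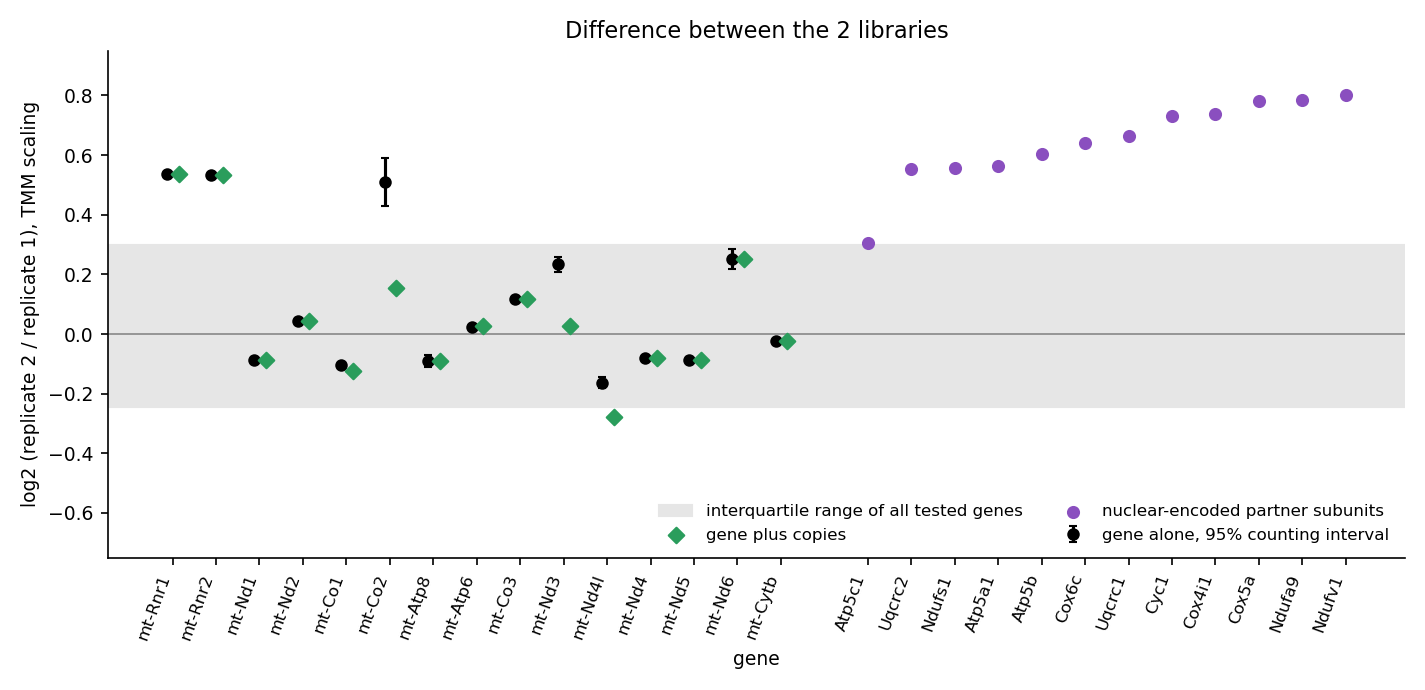
Log2 of replicate 2 over replicate 1 (TMM scaling) for the 15 mitochondrial genes with counts, alone (circles with 95% counting intervals) and with copies added (diamonds), and for 12 nuclear-encoded partner subunits; the band is the interquartile range of all tested genes. The rRNA genes lie at 0.54 and 0.53, 12 of the 13 protein genes alone lie within the band, and all partner subunits lie between 0.31 and 0.80.

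Nuclear genes that work with the mitochondrial genome were taken from 3 lists. The partner subunits are a chosen list of 12 nuclear-encoded proteins of the same respiratory complexes, and other subunits were not examined as a list. The test called 12 of 12 higher in replicate 2, beside 28.6% of all tested genes. Backgrounds of all genes were not matched for count. The lowest count among the 12 was 3324, that of Ndufa9 in replicate 1, and at high counts the test calls small differences. The median log2 difference of the 12 was 0.65, beside -0.02 for the mitochondrial protein genes and -0.003 for all genes. The largest differences were those of Ndufv1 at 0.80 and Ndufa9 at 0.78, complex I subunits, and of Cox5a at 0.78, a complex IV subunit. The smallest was that of the ATP synthase subunit Atp5c1 at 0.31. The most abundant were Atp5b at 1028 and 1061 TPM, Cox4i1 at 518 and 647 TPM and Atp5a1 at 393 and 426 TPM. With spike-in and total-count scaling 11 of 12 were called higher, beside 15.7% and 14.1% of all genes. The gap of 0.67 between the medians of the partner subunits and the mitochondrial protein genes does not depend on the scaling between libraries. The 4 brown fat markers were also all called higher in replicate 2, with a median of 0.67, from 0.54 for Elovl3 to 0.75 for Cox7a1. The 5 liver markers had a median of 6.32 and the 5 muscle markers one of 5.10. The part of these tissues in the partner subunits' difference was not tested.

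Genes of mitochondrial transcription and DNA maintenance were low. Of 16 genes 5 were called higher in replicate 2 and 0 lower, beside 28.6% and 24.7% of all tested genes, so the count of higher genes was near the background. Their median difference was 0.23 and their summed level 173 and 147 TPM. The largest differences were those of Tefm, the transcription elongation factor, at 0.41, and of Tfam, which packages the DNA and starts transcription, at 0.40. The termination factor family member Mterf2 stood at 0.38 without passing the test (exact binomial test, adjusted p = 0.082). The only value under 0 was that of the transcription factor Tfb2m at -0.01. The highest levels were 23.2 and 21.8 TPM for Polg, the DNA polymerase, 25.01 and 19.86 TPM for Tfam, and 18.3 and 17.4 TPM for the single-strand binding protein Ssbp1. With ERCC scaling 0 of the 16 were called higher and 3 lower, beside 15.7% and 52.8% of all genes. With total counts these were 0 and 4, beside 14.1% and 58.3% of all genes, which such a scaling shifts by the same amount.

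Genes of mitochondrial RNA processing, stability and tRNA maturation were called in both directions. Of 30 matched genes 11 were called higher in replicate 2 and 2 lower, beside 28.6% and 24.7% of all tested genes, with a median of 0.10. The largest differences were those of the rRNA methyltransferases Mrm2 at 0.63 and Mrm3 at 0.54, and of Hsd17b10, a subunit of mitochondrial RNase P, at 0.55. The 2 called lower were Elac2, which cuts the 3′ end of tRNAs, at -0.23, and Trnt1, which adds their CCA end, at -0.21. Fastkd3 stood at -0.17 without passing the test (exact binomial test, adjusted p = 0.27). The highest levels were 64.1 and 70.1 TPM for Hsd17b10, 44.2 and 37.5 TPM for Grsf1, a protein of mitochondrial RNA granules, and 41.2 and 40.5 TPM for Slirp, which acts with Lrpprc in mRNA stability. With ERCC scaling 3 were called higher and 15 lower, beside 15.7% and 52.8% of all genes. With total counts 2 were higher and 18 lower, beside 14.1% and 58.3%, so the lower counts were near those backgrounds.

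The 2 quantifications of the same reads were compared as log2(TPM + 1) in the second transcript table minus the gene table. The median over the 13 protein genes was 0.31 in replicate 1 and 0.39 in replicate 2. Over the 5942 genes of at least 10 TPM the median was 0.47 and 0.52, with interquartile ranges from 0.34 to 0.69 and from 0.39 to 0.72. In each library 8 of the 13 protein genes were higher in the second table by less than the median gene. Those lower in the second table numbered 2 in replicate 1, mt-Co3 and mt-Atp8, and 3 in replicate 2, where mt-Nd4l joined them.

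Genes without a window shared in the annotation did not all have the same offset. The offset was 0.26 and 0.39 for mt-Nd1, 0.31 and 0.41 for mt-Nd5, 0.36 and 0.39 for mt-Nd6 and 0.29 and 0.39 for mt-Cytb. It was 0.12 and 0.40 for mt-Rnr1 and 0.51 and 0.58 for mt-Rnr2. For mt-Atp8 it was -13.85 and -13.34. These 2 values are no measured offsets, since mt-Atp8 was listed at 0 in the second table. They are set by its gene table TPM and the 1 added to it. In 4 of 13 protein genes the tables differed by more than 1 log2 unit in either library. These were mt-Co2, mt-Co3, mt-Nd4l and mt-Atp8, of which mt-Nd4l did so in replicate 2 alone. Of all genes of at least 10 TPM, 11.7% did so in replicate 1 and 12.4% in replicate 2, each library counted by itself.

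For mt-Co2 and mt-Co3 the difference lay in the split with the copy. The second table gave mt-Co3 3650 and 4100 TPM and Gm28437 222587 and 149224 counts, so the gene kept 20.2% and 26.2%. With copies added the table difference for mt-Co3 went from -1.98 and -1.51 to 0.33 and 0.42, and for mt-Co2 from 1.76 and 2.72 to 0.42 and 0.55. Both were then higher in the second table in both libraries. Only 2 of 13 protein genes remained more than 1 log2 unit apart.

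The other 2, mt-Atp8 and mt-Nd4l, are the shortest protein genes and overlap a longer neighbour. In the second table mt-Atp8 was listed at 0 in both libraries, against 53665 and 35896 counts in the gene table. The gene mt-Nd4l was listed at 16358 and 200 counts there, against 56646 and 36021. The neighbours, copies added, also had fewer counts there in both libraries, such as mt-Atp6 at 288712 against 437664 in replicate 1. Sums over each pair therefore cannot show whether counts moved between neighbours. Genes mt-Atp8 and mt-Atp6 with copies summed to 0.588 and 0.578 of the gene table's counts, and mt-Nd4l and mt-Nd4 to 0.871 and 0.811. The second table gave effective lengths of 34.02 and 42.52 bases to mt-Atp8 (204 bases) and of 56.9 and 64.1 bases to mt-Nd4l (297 bases). In that table long transcripts lost a median of 300 and 321 bases to the effective length, more than either gene holds. The gene mt-Nd3, next in length at 348 bases, differed between tables by 0.90 and 0.51 alone and by 0.36 and 0.13 with copies.

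**Figure D4:**
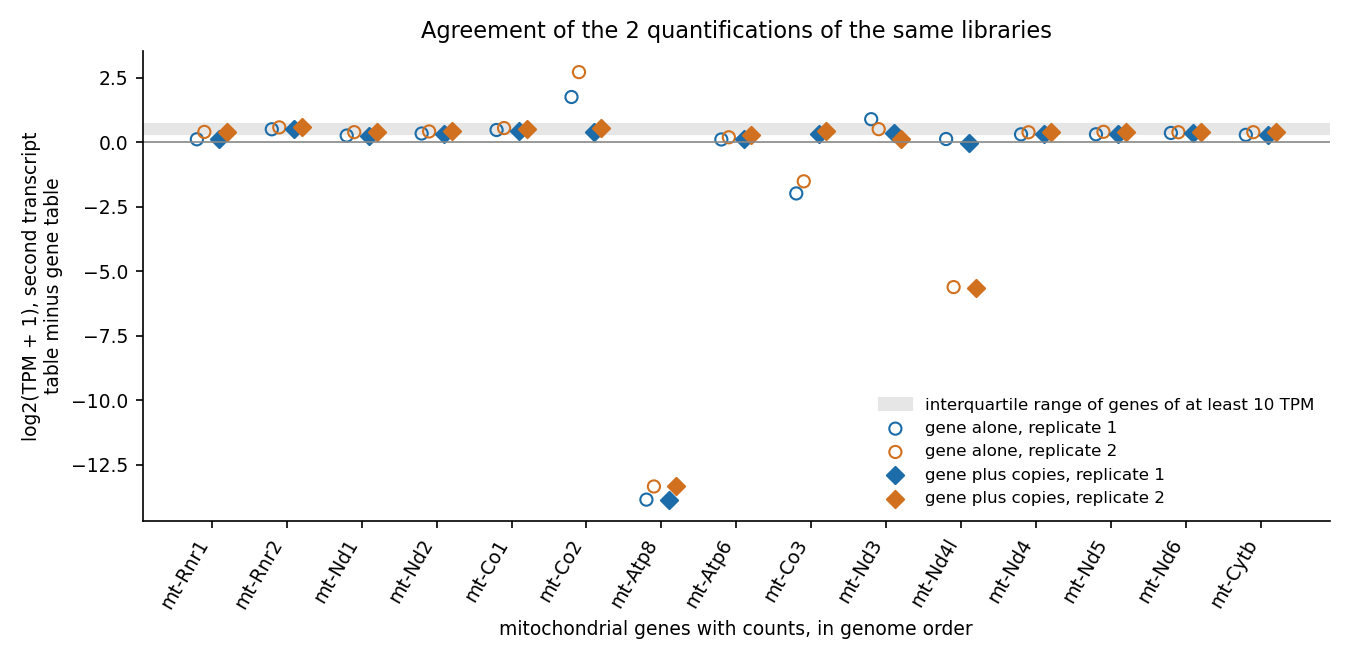
Log2(TPM + 1) in the second transcript table minus the gene table for the 15 mitochondrial genes with counts, alone (open circles) and with copies added (diamonds), in replicates 1 and 2; the band is the interquartile range of genes of at least 10 TPM. Adding copies brings mt-Co2 and mt-Co3 to between 0.33 and 0.55, while mt-Nd4l in replicate 2 stays near -5.6. The values of mt-Atp8, near -13.9 and -13.3, come from a listed level of 0 in the second table.

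Among all genes of the annotation, 12 of the 20 highest by TPM in replicate 1 and 11 of the 20 highest in replicate 2 were members. The most abundant entries outside the mitochondrial genome were the signal recognition particle RNAs Rn7s1 and Rn7s2, each listed at 63159 and 85762 TPM, and Rn7sk, a regulator of transcription elongation, at 58346 and 42338 TPM. Rn7s1 and Rn7s2 had the same values in both libraries and may share reads. By mean TPM they were followed by Gm28661, Gm26917, Rmrp, Alb, Rpph1, Gm22988 and Gm29216. Alb, a liver marker, ranked there through replicate 2 alone, at 189 and 10582 TPM. Thus 2 of these 10 entries, Gm28661 and Gm29216, were copies of mitochondrial genes, of mt-Co2 and mt-Co1. Rmrp and Rpph1 are the RNA parts of the endonucleases RNase MRP and RNase P. Rmrp stood at 6955 and 7727 TPM and Rpph1 at 4952 and 5011 TPM.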

How the data were processed

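Per the labels, both libraries are total RNA from adrenal gland, and the deposited text names the assembly mm10 and GENCODE M21. Per the file headers, the authors' gene table and first transcript table give expected counts, TPM and posterior mean counts with an SD. TPM and estimated counts in the second transcript table are also the authors', per the file headers. The programs used and any use of strand are not stated in these sources. Symbols and coordinates came from GENCODE M21.

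Expected counts were rounded for tests. Library differences (log2, replicate 2 over 1) had 0.5 added to each count and used TMM scaling (edgeR 4.0.16), tested with an exact conditional binomial test (scipy 1.17.1, two-sided, adjusted p under 0.05). Intervals are Wilson for shares and Clopper-Pearson for differences, at 95%. Copies were found with blastn 2.17.0 among annotated transcripts. Adding the counts of copies to their genes, the posterior means as an alternative, and the rRNA to protein gene ratio were chosen after seeing the data. Alternatives covered other scalings (DESeq2 1.42.0 size factors, spike-ins, totals), filters, tables, pseudocounts and leaving out each replicate. Scripts were tested on simulated counts.

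Members and lists were chosen with earlier results of these data known. The rule for named genes took all members, copies of at least 10 counts, for each of 3 nuclear lists the 3 largest differences each way and the 3 highest mean TPM, and the 10 highest genes outside the mitochondrial genome. Of the 31 processing genes, 30 matched by symbol.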

Additional observations from a re-analysis of the deposited data

How the results depend on the processing

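The limits are the 2 libraries, the unsettled separation of their animals, the tissue markers that differ between them, and reads shared with copies. With 2 libraries, leaving out either shifts a mean by less than the SD by construction. Levels moved beyond the spread in 14 of 15 members in the second table, 13 of 13 protein genes with rRNA and tRNA left out of TPM, and 2 of 15 with copies added. Of 163 alternative values of the members' library differences, 146 kept direction and call, 16 reversed and 1 was weaker. Some could hardly change, since the count filters left each log2 difference as it was. Reversals came only from ERCC scaling (5), total counts (5), posterior means (2), the second table (2) and the second table with copies (2). Changes of size alone counted as kept, as for mt-Nd4l from -0.16 to -5.76 in the second table. Causes were not tested.

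The mean share of 37.8% was 35.8% in the second table and 12.2% without rRNA. The log2 ratio of mt-Rnr2 to mt-Rnr1, -0.20 in TPM, was 0.59 as counts, -0.14 per full-length base and 0.080 in the second table, copies added or not. That of mt-Nd6 to the other protein genes, -2.85, was -4.02 as counts, -2.48 in the second table and -3.26 with copies. That of mt-Atp8 to mt-Atp6, -0.61, was -3.09 as counts, -1.35 per base and -0.36 from posterior means, with no value in the second table, where mt-Atp8 is listed at 0. That of mt-Nd4l to mt-Nd4, -0.24, was -2.93 as counts, -0.71 per base, -0.16 with copies, -0.39 from posterior means and -3.33 in the second table, copies added or not. That of rRNA to protein genes, 1.75 in counts, was 1.27 in TPM.

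Of the members, 3 were higher and 11 lower in replicate 2 by ERCC scaling (15.7% and 52.8% of all genes), 3 and 12 by total counts (14.1% and 58.3%). The protein genes' median difference of -0.02 was -0.30 by ERCC, -0.36 by total counts, -0.0089 in the second table, -0.0011 there with copies, -0.085 from posterior means and -0.44 in log2(TPM + 1). By ERCC scaling and total counts, mt-Nd2 reversed to -0.23 and -0.29, mt-Atp6 to -0.25 and -0.31, mt-Co3 to -0.16 and -0.22, mt-Nd3 to -0.042 and -0.11, and mt-Nd6 to -0.024 and -0.088. By posterior means mt-Co2 reversed to -0.17 and mt-Atp6 to -0.35. In the second table mt-Nd3 reversed to -0.11 (-0.16 with copies) and mt-Cytb to 0.021 either way. The median table difference of 0.35 became -0.15 against the median gene and -0.26 in counts.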
